A study of Mus musculus with 12 samples.

Results

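The comparison pooled all libraries that lacked miR-146a against all that carried it, over both states of Runx1. The data were RNA-seq counts of mouse bone marrow cells sorted for GFP, for Kit and Sca-1 and for the lack of lineage markers, the LSK gate of blood stem cells and early progenitors. The cells came from secondary recipients of engrafted stem and progenitor cells. Of the 12 libraries in the series all 12 entered, 6 on each side. The side without miR-146a held miR146aKO (libraries A047, A150 and A151, titled Mir-146 KO/Empty) and miR146aKO_Runx1mut (A001, A031 and A051). The side with miR-146a held wildtype (A015, A040 and A053, titled Empty) and Runx1mut (A021, A042 and A058). Runx1mut is the frameshift Runx1S291fsX300. The labels do not explain "Empty" or GFP, and they give neither the animals' age nor how the mutation was brought in. Whether the 3 libraries of a genotype are 3 animals is not stated, and the p-values cover only the spread between libraries, which may be technical. The pooled contrast estimates a single effect of miR-146a loss shared by both Runx1 states. It does not require that effect to be present in each state, and a pooled value can come mainly from either.

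MiR-146a is a microRNA that NF-kB switches on and that in turn limits signalling from Toll-like and interleukin-1 receptors, in part by binding the messenger RNAs of the adaptor Traf6 and the kinase Irak1. Mice without it develop inflammation, myeloid expansion and, with age, exhaustion of blood stem cells. A microRNA finds its targets through its seed, the stretch near its 5′ end that pairs with sites in 3′ untranslated regions (UTRs). Runx1 is a transcription factor that blood stem cells need in order to form and to mature.

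The mature sequence of miR-146a and that of its relative miR-146b are shown because the seed, in capitals (bases 2 to 8), defines the sites counted here. Among 1738 mature mouse miRNAs in the RefSeq table these 2 alone had the seed GAGAACU. MiR-146a-5p lies at chr11:43374435-43374456 on the minus strand and miR-146b-5p at chr19:46342790-46342811 on the plus strand of GRCm38.p6, so an intact miR-146b gene could supply the same seed.
mmu-miR-146a-5p: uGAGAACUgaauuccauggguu
mmu-miR-146b-5p: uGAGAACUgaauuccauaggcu

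The classic targets Traf6, Irak1 and Irak2 carried the matching sites. The longest annotated 3′ UTR (GENCODE M21, GRCm38) had 4 sites of 8 bases in Traf6 (UTR of 4170 bases on chromosome 2), 2 in Irak1 (1526 bases on chromosome X) and 1 in Irak2 (1246 bases on chromosome 6), beside 1 of 7 bases in Irak2. Axl, a receptor tyrosine kinase of macrophages described below and shown here after its values were seen, had 1 (1389 bases on chromosome 7). Of 2 further reported targets Numb had 1 site (1405 bases) and Relb had 0 (336 bases). Capitals mark the letters that pair with the seed, AGTTCTC, and the A after them where the site has 8 bases. Each line runs 5′ to 3′ over 22 bases that end with the site or 1 base after it.
Traf6 site 1: ccgctctggtgttgAGTTCTCA
Traf6 site 2: ccctggaaggcttaAGTTCTCA
Traf6 site 3: gtactttggagtctAGTTCTCA
Traf6 site 4: gactttgctactgcAGTTCTCA
Irak1 site 1: gactcagaggtcaaAGTTCTCA
Irak1 site 2: ttctcatgcttggaAGTTCTCA
Irak2 site 1: cccccaaacctcttAGTTCTCc
Irak2 site 2: ccggtgtctccgcaAGTTCTCA
Axl site 1: agtttagagttcaaAGTTCTCA

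The altered genes were read first. The microRNA gene Mir146 had 0 counts in each library but A031 of miR146aKO_Runx1mut, where it had 14, and Mir146b had 0 in all 12. Because the 6 libraries labelled as carrying miR-146a were also at 0, zeros do not check the labels, and a label without miR-146a does not match the 14 counts of A031. The label was kept. Runx1 was at 168, 150 and 98.3 CPM (counts scaled to a fixed library total) in miR146aKO and at 120, 259 and 191 CPM in miR146aKO_Runx1mut, against 241, 360 and 237 CPM in wildtype and 200, 609 and 312 CPM in Runx1mut. Its pooled log2 fold change was -0.99 (SE 0.31), which did not pass the test (edgeR adjusted p = 0.254), and the sides overlapped.

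The direct targets did not pass the test either. Traf6 averaged 115 ± 40.5 CPM without miR-146a and 94.4 ± 35.8 CPM with it (SD, n = 6 each), a log2 fold change of 0.26 (SE 0.32, edgeR adjusted p = 0.874). Irak1 averaged 159 ± 37.6 and 156 ± 51.04 CPM, a log2 fold change of 0.01 (SE 0.28, adjusted p = 0.992). Irak2, a kinase of the same pathway, was at 51.5, 33.4 and 47.5 CPM in miR146aKO against 5.88, 2.66 and 7.83 CPM in wildtype, but at 2.24, 17.9 and 18.4 CPM in miR146aKO_Runx1mut against 10.1, 16.2 and 34.7 CPM in Runx1mut. Its pooled log2 fold change of 1.17 (SE 0.86, adjusted p = 0.758) lay between 3.00 for the first pair and -0.66 for the second.

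Few single genes passed the pooled test. Of 12744 genes tested with edgeR, 5 were called higher without miR-146a (0.0392% of genes) and 0 were called lower (0%) at a Benjamini-Hochberg adjusted p under 0.05. At an unadjusted p under 0.05 there were 733 on the higher side (5.75%) and 414 on the lower (3.25%), and limma-voom called 0 in either direction. DESeq2 called 315 higher and 72 lower. The median log2 fold change of all genes was -0.01, with 6304 genes (49.5%) on the higher side. In 43 genes (0.337%) all 6 libraries without miR-146a lay above all 6 with it, and in 42 (0.33%) all 6 lay below. The edgeR fit had a biological coefficient of variation of 84.5%, so libraries of like genotype differed widely.

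The 5 called genes were Siglec1, Kcna2, Crip2, Spic and Slc11a1, and in each the 6 libraries without miR-146a lay above the 6 with it. At least 3 are known for tissue macrophages. Siglec1 (chr2:131069220-131086765, minus strand) encodes sialoadhesin, or CD169, a sialic acid receptor that marks macrophages of marrow, spleen and lymph node. It was at 2.21, 315 and 245 CPM in miR146aKO and at 2.93, 22.03 and 201 CPM in miR146aKO_Runx1mut, against 0.137, 0 and 0.142 CPM in wildtype and 0.284, 0.427 and 0.171 CPM in Runx1mut. Its log2 fold change was 9.03 (SE 1.36, edgeR adjusted p = 0.0272).

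Spic (chr10:88674772-88685015, minus strand) encodes an Ets-family transcription factor that macrophages of the spleen and marrow need in order to recycle iron from red cells. Its levels were 2.53, 179 and 140 CPM in miR146aKO and 8.27, 22.9 and 66.4 CPM in miR146aKO_Runx1mut, against 0.410, 1.11 and 0.712 CPM in wildtype and 0.284, 0.711 and 0 CPM in Runx1mut. This rise was 6.85 on a log2 scale, with an SE of 1.00 (edgeR adjusted p = 0.0272). A150 and A151 were highest and A047 lowest among libraries without miR-146a, yet A047 was still above the highest library with it.

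Slc11a1 (chr1:74375195-74386062, plus strand) encodes NRAMP1, which pumps iron and manganese out of macrophage phagosomes. It was at 9.48, 173 and 155 CPM in miR146aKO and at 38.6, 10.1 and 69.6 CPM in miR146aKO_Runx1mut, against 0.684, 0.888 and 0.142 CPM in wildtype and 0.426, 0.142 and 2.91 CPM in Runx1mut. The log2 fold change was 6.29 (SE 1.01, edgeR adjusted p = 0.0450).

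The other 2 called genes encode a channel and a LIM-domain protein. Kcna2 (chr3:107101146-107115005, plus strand), a voltage-gated potassium channel, was at 1.26, 150 and 154 CPM in miR146aKO and 11.4, 9.06 and 49.7 CPM in miR146aKO_Runx1mut, against 0 to 0.666 CPM in wildtype and 0 to 0.284 CPM in Runx1mut. The log2 fold change was 7.79 (SE 1.16, edgeR adjusted p = 0.0272). Crip2 (chr12:113140236-113145506, plus strand), a small cysteine-rich protein, was at 7.59, 15.5 and 15.1 CPM in miR146aKO and 11.5, 3.73 and 73.2 CPM in miR146aKO_Runx1mut, against 0 to 0.142 CPM in both genotypes with miR-146a. The 6 libraries without miR-146a held 540 Crip2 counts and the 6 with it 3, a depth-scaled ratio of 259 (95% counting interval 88.1 to 1259, counting error only). In A047 and A001 Crip2 lay within the range of the other 4 libraries that lacked miR-146a.

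A further 7 genes complete the 12 that were named by rule on the higher side, with adjusted p of 0.0714 each, so none was called. They included Hmox1, which breaks down haem, at 32.2, 1157 and 1075 CPM in miR146aKO and 42.6, 75.0 and 700 CPM in miR146aKO_Runx1mut, against 1.64, 31.3 and 0.712 CPM in wildtype and 2.70, 1.42 and 2.22 CPM in Runx1mut. C1qb, a chain of complement C1q that macrophages secrete, was at 42.4, 1296 and 826 CPM in miR146aKO and 152, 132 and 1085 CPM in miR146aKO_Runx1mut, against 0.821, 36.6 and 0.427 CPM in wildtype and 3.83, 0.854 and 1.54 CPM in Runx1mut. Axl, which binds dying cells through the bridging protein Gas6, was at 32.7 to 1255 CPM without miR-146a (median 429) and at 0.854 to 28.4 CPM with it (median 5.44). In all 3 genes A040 of wildtype was the highest library that carried miR-146a, and it still lay below the lowest library that lacked it.

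The remaining 4 were the chemokine receptor Ccr3, the growth factor Igf1, the lysosomal protein Cd68 and the unnamed gene AI607873. Their log2 fold changes were 7.87 for Ccr3 (SE 1.41), 5.24 for Igf1 (SE 0.94), 3.35 for Cd68 (SE 0.61) and 5.59 for AI607873 (SE 0.99). Ccr3, best known from eosinophils, and Igf1 were the members whose sides overlapped, with A047 at 0.316 CPM and A040 at 2.00 CPM for Ccr3, and A047 at 7.27 CPM and A021 at 8.51 CPM for Igf1. Cd68 had the highest levels in libraries with miR-146a of these 7 genes, at 18.2 to 40.9 CPM, against 61.8 to 850 CPM without it.

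**Figure D1:**
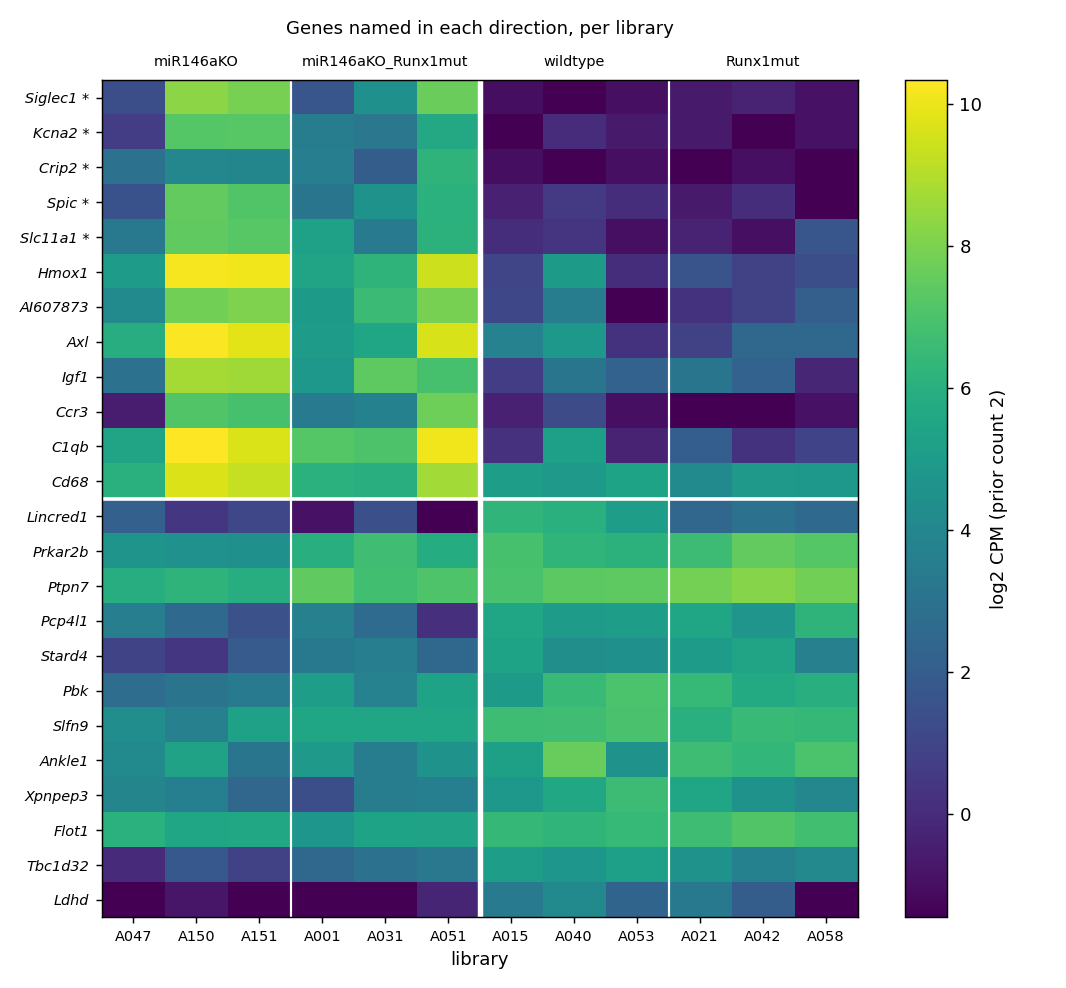
Level of the 12 genes named by rule on the higher side and the 12 on the lower side, as log2 CPM with a prior count of 2 (colour), in each of the 12 libraries (columns, grouped by genotype). Asterisks mark the 5 genes called by edgeR. A150, A151 and A051 have the highest levels of most of the first 12, and Ldhd is near 0 in all 6 libraries without miR-146a.

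Macrophage genes as a group lay on the higher side. Of 33 listed monocyte and macrophage genes 32 were tested, 31 had a higher level without miR-146a, 26 had an unadjusted p under 0.05, and 2 were called (Spic and Slc11a1). In the same test 5.75% of all genes had an unadjusted p under 0.05 on that side. Their median log2 fold change was 3.97, against -0.01 for all genes tested, and 30 of the 32 were on the higher side both in miR146aKO over wildtype and in miR146aKO_Runx1mut over Runx1mut, where 26.3% of all genes were on that side in both. The list level, the mean log2 CPM of its tested genes, was 4.02 in A047, 8.01 in A150, 7.52 in A151, 5.31 in A001, 5.04 in A031 and 7.45 in A051. It was 1.84 in A015, 4.10 in A040, 2.15 in A053, 3.43 in A021, 1.68 in A042 and 3.62 in A058. A047 without miR-146a therefore lay below A040 with it, and A150, A151 and A051 stood apart at the top. Bulk RNA cannot tell more cells of a type from more of its RNA per cell.

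Lists of engulfment receptors, iron and haem genes, lysosomal genes and macrophage transcription factors were drawn up after the called genes were seen, so their counts describe the macrophage pattern and add no independent evidence of it. So were the choices of Mrc1, Mertk, Cd5l, Mfge8, Slc40a1, Fth1, Ftl1, Tfrc, Ctsb and Spi1 as examples. All other lists, the monocyte and macrophage list with Spic and Slc11a1 among them, were chosen with earlier results of these data known. Their counts are descriptions too and no independent evidence. For every list below, the shares of all genes tested were 49.5% on the higher side and 50.5% on the lower. An unadjusted p under 0.05 was reached by 5.75% on the higher side and 3.25% on the lower, with 0.0392% called higher and 0% called lower.

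Receptors that clear dying cells and debris lay mostly on the higher side. Of 30 listed engulfment and scavenger receptors 24 were tested, 23 were on the higher side, 19 had an unadjusted p under 0.05 and 1, Siglec1, was called. The median log2 fold change was 4.67 (5.08 for miR146aKO over wildtype and 4.78 for miR146aKO_Runx1mut over Runx1mut). Mrc1, the mannose receptor CD206, was at 19.0, 1900 and 1958 CPM in miR146aKO and 101, 190 and 1031 CPM in miR146aKO_Runx1mut, against 2.42 to 49.1 CPM in wildtype and 1.14 to 23.3 CPM in Runx1mut (edgeR adjusted p = 0.0777). Mertk, a receptor tyrosine kinase related to Axl, reached 245 CPM in A150 and 261 CPM in A051, but was at 1.58 CPM in A047 and 1.55 CPM in A001, below A040 of wildtype at 6.22 CPM (log2 fold change 6.83, adjusted p = 0.0777). Cd5l, a protein secreted by tissue macrophages, ranged from 1.58 to 830 CPM without miR-146a and from 0.142 to 27.8 CPM with it. Mfge8, a bridging protein for dying cells, was the member on the lower side (log2 fold change -0.80, adjusted p = 0.835).

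Iron and haem handling genes did as well. Of 17 listed, 16 were tested, 14 were on the higher side and 11 had an unadjusted p under 0.05, with Slc11a1 called and a median log2 fold change of 1.46. Trf, the iron carrier transferrin, was at 61.6, 878 and 2879 CPM in miR146aKO and 64.9, 380 and 485 CPM in miR146aKO_Runx1mut, against 19.3 to 92.8 CPM in wildtype and 48.6 to 62.0 CPM in Runx1mut (log2 fold change 3.64, SE 0.84, edgeR adjusted p = 0.118). The iron exporter ferroportin, Slc40a1, was at 11.7, 870 and 1187 CPM in miR146aKO and 115, 31.3 and 153 CPM in miR146aKO_Runx1mut, against 0.854 to 23.3 CPM in wildtype and 1.71 to 48.9 CPM in Runx1mut (adjusted p = 0.287). The ferritin subunits Fth1 and Ftl1 had smaller log2 fold changes of 1.38 and 1.31 (adjusted p = 0.179 and 0.300). The transferrin receptor Tfrc, which takes iron into dividing cells, was at 0.42 (adjusted p = 0.868).

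The level of the lysosomal list did not overlap between the sides. Of 40 listed 39 were tested, 36 were on the higher side, 24 had an unadjusted p under 0.05 and 0 were called, with a median log2 fold change of 1.27 and 30 on the higher side in both backgrounds (26.3% of all genes). The list level was 6.16 to 7.76 in libraries without miR-146a and 4.77 to 5.99 in libraries with it. In 7 of the 39 genes the 6 libraries without miR-146a lay above the 6 with it, as in 0.337% of all genes. Acp5, tartrate-resistant acid phosphatase, was at 26.8 to 150.99 CPM without miR-146a and 0 to 6.16 CPM with it (log2 fold change 5.97, edgeR adjusted p = 0.0714). Pld3, a lysosomal nuclease, was at 60.1 to 960 CPM and 6.53 to 52.0 CPM (3.45, adjusted p = 0.0777). Ctsb, the protease cathepsin B, was at 391 to 2903 CPM and 49.3 to 367 CPM (2.91, adjusted p = 0.108).

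Transcription factors of macrophages also had a list level that did not overlap, 4.29 to 6.10 without miR-146a and 3.03 to 4.07 with it. Of 20 tested 17 were on the higher side, 8 had an unadjusted p under 0.05 and 1, Spic, was called, with a median log2 fold change of 1.03. Maf was at 1.72 to 418 CPM without miR-146a and 0.684 to 50.9 CPM with it (log2 fold change 3.88, edgeR adjusted p = 0.0777). Spi1, which encodes PU.1 and is shared by stem cells and myeloid cells, was at 19.0 to 176 CPM without miR-146a and 34.3 to 147 CPM with it (log2 fold change 0.35, adjusted p = 0.869).

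Markers of other cells were on the higher side beside the macrophage genes. Of 27 listed erythroid genes 21 were tested, 18 were on the higher side, 13 had an unadjusted p under 0.05 on that side and 1 on the other, and 0 were called. Of all genes 5.75% reached that p on the higher side and 3.25% on the lower. The median log2 fold change of the erythroid genes was 3.93, with 2.25 for miR146aKO over wildtype and 4.52 for miR146aKO_Runx1mut over Runx1mut. Car1, a carbonic anhydrase of red cell precursors, was at 1.26, 108 and 73.3 CPM in miR146aKO and 0.172, 579 and 628 CPM in miR146aKO_Runx1mut, against 0 to 2.05 CPM in all 6 libraries with miR-146a (edgeR adjusted p = 0.0777). The erythroid list level was 4.40 in A150, 3.31 in A151, 5.10 in A031 and 5.12 in A051, but 0.86 in A047 and 0.12 in A001, within the 0.09 to 1.99 of libraries with miR-146a. Globin genes (Hbb-bs, Hbb-bt, Hba-a1, Hba-a2) had too few counts to be tested.

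Stromal and endothelial genes were uneven in the same way. Of 22 listed 18 were tested, 15 were on the higher side, 13 had an unadjusted p under 0.05 and 0 were called, with a median of 4.65. Cxcl12, the chemokine of marrow stroma that holds stem cells in place, was at 0.632, 158 and 346 CPM in miR146aKO and 0.345, 468 and 0 CPM in miR146aKO_Runx1mut, against 0 to 0.711 CPM in libraries with miR-146a (edgeR adjusted p = 0.0814). Sparc, a matrix protein, was at 0 to 153 CPM without miR-146a and 0 to 1.09 CPM with it (adjusted p = 0.0777). Kitl, the ligand of Kit, had 212 counts without miR-146a and 1 with it, a ratio of 305 (95% counting interval 54.1 to 12093). The list level was 5.14 in A150, 4.75 in A151 and 4.61 in A031, and at most 1.42 in the other 9 libraries. Col1a1, Pdgfra, Cldn5 and Lum had too few counts to be tested. Of 10 listed eosinophil genes 5 were tested, Ccr3 among them, 4 were on the higher side, 3 had an unadjusted p under 0.05 and 0 were called, with a median of 2.36. Their level was 4.85 in A150, 4.51 in A151, 4.01 in A031 and 5.80 in A051, above the highest library with miR-146a (A040 at 2.67), and 2.44 in A047 and 1.55 in A001. Of 19 listed dendritic cell genes 13 were tested, 9 were on the higher side, 2 had an unadjusted p under 0.05 and 0 were called, with a median of 1.01 (0.49 without A051). The part of erythroid, stromal, eosinophil and dendritic cells in the macrophage result was not tested.

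The libraries thus differed in kind. A150 and A151 were high for macrophage, erythroid and stromal lists, A051 for macrophage and erythroid lists and A031 for erythroid and stromal lists, while A047 and A001 were low for the last 2. Levels of the called genes in A047 and A001, where the erythroid and stromal lists were within the range of libraries with miR-146a, were 2.21 and 2.93 CPM for Siglec1, 2.53 and 8.27 CPM for Spic, 9.48 and 38.6 CPM for Slc11a1, 1.26 and 11.4 CPM for Kcna2 and 7.59 and 11.5 CPM for Crip2. Each exceeded every library with miR-146a, as the separation of the sides already stated for these genes requires. The genes were picked by the pooled test of the same libraries, so these levels do not test the part of erythroid or stromal cells. A047 was also high for the plasma cell list (7.94) and the T and NK list (6.49). Libraries with miR-146a reached at most 6.97 and 2.52 for these lists, and A001 lay within their range for both.

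**Figure D2:**
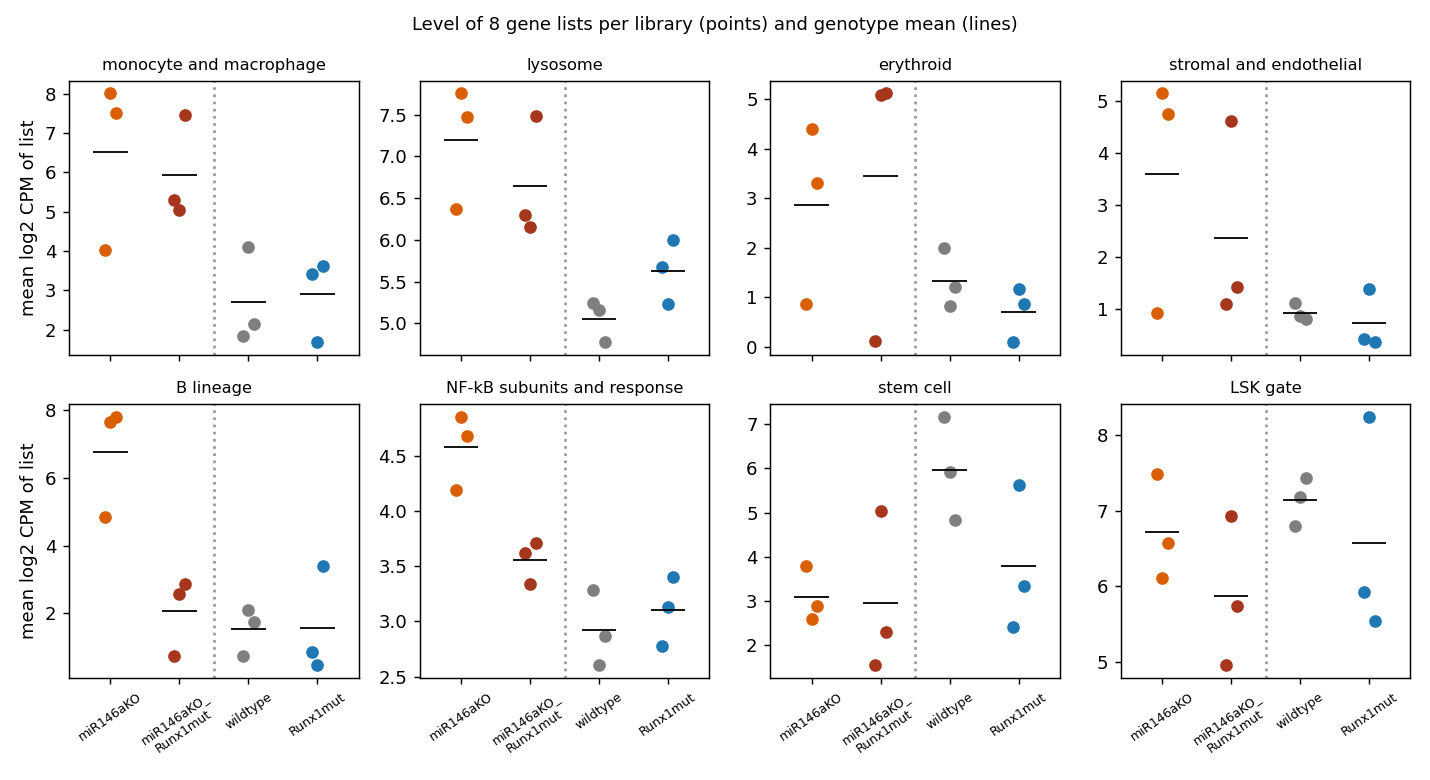
Mean log2 CPM (prior count 2) of the tested genes of 8 lists, with 1 point per library and a line at the mean of each genotype, the 2 genotypes without miR-146a left of the dotted line. The lysosome list does not overlap across that line, while the erythroid and stromal lists split the libraries without miR-146a into high and low ones.

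Lymphoid and antigen presentation genes had high medians in 1 background, and the difference between backgrounds was not tested for the lists. All 23 tested B lineage genes and all 11 MHC class II genes were on the pooled higher side, with 7 and 4 at an unadjusted p under 0.05 and 0 called. The B lineage median was 5.32 for miR146aKO over wildtype and -0.14 for miR146aKO_Runx1mut over Runx1mut, and the MHC class II medians were 4.34 and 0.23. Fcer2a, the low-affinity IgE receptor CD23 of B cells, was at 8.85, 398 and 270 CPM in miR146aKO and 0.345, 0.355 and 5.58 CPM in miR146aKO_Runx1mut, against 0.142 to 2.33 CPM in wildtype and 0 to 0.342 CPM in Runx1mut (edgeR adjusted p = 0.0777). H2-Aa, a chain of MHC class II, was at 569, 4107 and 3359 CPM in miR146aKO and 15.8, 242 and 226 CPM in miR146aKO_Runx1mut, against 87.8 to 217 CPM in wildtype and 7.40 to 225 CPM in Runx1mut (adjusted p = 0.430).

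Plasma cell and T and NK lists had the same shape. All 10 plasma cell genes were on the pooled higher side with 0 at an unadjusted p under 0.05, and their medians were 3.89 for miR146aKO over wildtype and -0.95 for miR146aKO_Runx1mut over Runx1mut. Jchain, which joins antibody chains, was at 10503, 2924 and 7649 CPM in miR146aKO and 6.03, 208 and 300 CPM in miR146aKO_Runx1mut, against 3.56 to 445 CPM in wildtype and 4.13 to 609 CPM in Runx1mut (edgeR adjusted p = 0.773). Of 17 T and NK genes 16 were on the higher side and 2 had an unadjusted p under 0.05, with medians of 6.22 and -1.23. Ccr7, which guides lymphocytes and dendritic cells to lymph nodes, had 573 counts in 4 of the libraries without miR-146a and 1 in those with it, a ratio of 824 (95% counting interval 147 to 32589), and was at 0 in A047 and A001 (edgeR adjusted p = 0.0777). With single libraries left out, the pooled medians ran from 1.75 to 4.57 (without A058) for B lineage, 1.46 (without A053) to 2.96 for MHC class II, 0.36 (without A053) to 4.08 (without A058) for plasma cell and 0.35 (without A053) to 3.81 (without A001) for T and NK genes.

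Innate signalling genes, the pathway miR-146a is known to limit, lay on the higher side with smaller medians. Of 37 tested NF-kB subunits and response genes 32 were on the higher side, 11 had an unadjusted p under 0.05 on that side and 1 on the other, and 0 were called, with a median log2 fold change of 0.70 (1.66 for miR146aKO over wildtype and 0.35 for miR146aKO_Runx1mut over Runx1mut). Relb, an NF-kB subunit and reported miR-146a target, was at 59.4, 22.3 and 15.6 CPM in miR146aKO and 5.17, 3.91 and 9.21 CPM in miR146aKO_Runx1mut, against 1.42 to 4.79 CPM in wildtype and 0.855 to 1.99 CPM in Runx1mut (log2 fold change 2.70, SE 0.69, edgeR adjusted p = 0.142). Nfkbia, the inhibitor that NF-kB induces, was at 65.8 to 194 CPM without miR-146a and 21.8 to 98.0 CPM with it (1.33, adjusted p = 0.259). Cxcl1, Cxcl2 and Il6 had too few counts to be tested.

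The Toll-like and IL-1 receptor list had a median of 0.44, with 0.87 for miR146aKO over wildtype and 0.06 for miR146aKO_Runx1mut over Runx1mut. This list had 29 of 37 tested genes on the higher side, 6 at an unadjusted p under 0.05 and 0 called. Its members of smallest p were receptors that sense nucleic acids inside endosomes. Tlr9, the receptor for bacterial DNA, was at 50.9, 128 and 53.8 CPM in miR146aKO and 1.03, 0.355 and 24.97 CPM in miR146aKO_Runx1mut, against 0.142 to 0.958 CPM in wildtype and 0 to 0.568 CPM in Runx1mut (log2 fold change 6.14, SE 1.17, edgeR adjusted p = 0.0738). Tlr13 was at 3.16 to 106 CPM without miR-146a and 0.284 to 6.44 CPM with it (3.84, adjusted p = 0.120), and Tlr7 at 2.53 to 198 and 0.137 to 37.0 CPM (3.59, adjusted p = 0.337). Of 45 interferon response genes 27 were on the higher side, with a median of 0.36, MHC class I genes 10 of 15 with 0.18, leukocyte adhesion and signalling genes 38 of 50 with 0.53, immediate early genes 21 of 26 with 0.55 and p53 targets 12 of 21 with 0.11. None of these members was called. Of all genes 49.5% were on the higher side, and 5.75% had an unadjusted p under 0.05 there. That p was reached by 6.67% of the interferon genes, 6.67% of the MHC class I genes and 0% of the p53 targets. It was reached by 20% of the leukocyte adhesion and signalling genes and 7.69% of the immediate early genes. The interferon medians were -0.07 for miR146aKO over wildtype and 0.44 for miR146aKO_Runx1mut over Runx1mut. In the same order the medians were 0.67 and -0.05 for MHC class I and 0.88 and -0.07 for leukocyte adhesion and signalling genes. They were 1.38 and -0.21 for immediate early genes and 0.26 and -0.05 for p53 targets. With single libraries left out, the pooled interferon median ran from -0.02 (without A051, the omission that turned its sign) to 0.50 and the MHC class I median from 0.01 to 0.34. The ranges were 0.22 to 0.55 for the Toll-like and IL-1 receptor list, 0.18 to 1.01 for immediate early genes and 0.06 to 0.48 for p53 targets.

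The list of reported miR-146a targets had 13 of 20 tested genes on the higher side, 4 at an unadjusted p under 0.05, 0 called and a median of 0.15, which ran from 0.05 (without A015) to 0.26 (without A047) when single libraries were left out. Beside Relb, the members of smallest p were Csf1r and Syk. Csf1r, the receptor for the macrophage growth factor M-CSF, is itself a macrophage marker. It was at 12.6 to 688 CPM without miR-146a and 0.711 to 87.8 CPM with it (log2 fold change 3.30, SE 1.02, edgeR adjusted p = 0.254). Syk, a kinase of immune receptors, had 1.07 (SE 0.40, adjusted p = 0.391).

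Transcripts with a seed site had medians close to that of the rest. Of the tested genes 11698 (91.8%) had an annotated 3′ UTR, in which a site was the letters AGTTCTC on the transcript strand, with a following A for 8 bases. The 544 genes with a site of 8 bases had a median log2 fold change of -0.01, the 949 with sites of only 7 bases -0.02 and the 10205 without either 0.00088. Genes with an unadjusted p under 0.05 on the higher side made up 4.41%, 4.85% and 6.14% of these classes. None of the 5 called genes had a site. UTRs were longer in the classes with sites, with medians of 2674 and 2670 bases, than in the class without, with 1033 bases. Among the 12 genes named by rule on the higher side Axl had a site, and among the 12 on the lower side Stard4, Slfn9 and Xpnpep3 did.

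**Figure D3:**
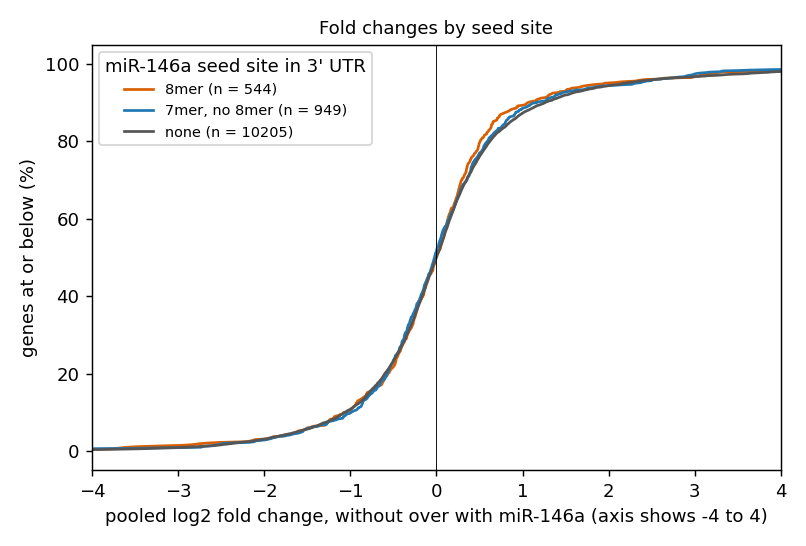
Cumulative share of genes (%) at or below each pooled log2 fold change, without miR-146a over with it, for genes with a site of 8 bases (n = 544), with sites of 7 bases only (n = 949) and with none (n = 10205). The 3 curves run together, with medians of -0.01, -0.02 and 0.00088.

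Promoters of the 12 genes named on the higher side were read because their levels were high in the same libraries. Only the first listed start of each gene was used. Windows of 300 bases, from 250 before to 50 after that start (RefSeq, GRCm38.p6), were matched for 9 of the 12, all but Siglec1, Hmox1 and AI607873. They were searched on both strands for GGAATTTCC and GGGACTTTC (forms of the NF-kB motif), TGTGGT and TGCGGT (RUNX motif) and GAGGAAGT (PU.1 motif), none of which overlaps another. The only matches were TGCGGT in Kcna2 (first base 135 before the start), the complement of TGTGGT in Crip2 (149 before) and the complement of GGAATTTCC in Ccr3 (179 before). Of 27025 promoters 0.322% held GGAATTTCC, 0.344% GGGACTTTC, 16.9% TGTGGT, 6.43% TGCGGT and 3.28% GAGGAAGT. Among the 9727 promoters of tested genes the shares were 0.339%, 0.411%, 13.1%, 9.43% and 3.41% in the same order. Among 8 matched genes named on the lower side, TGCGGT was found in Pcp4l1 and Ldhd. For Kcna2 and Spic the window lay inside the gene span given above, so a start further upstream was not searched. The windows of 3 called genes are shown 5′ to 3′ with matches in capitals, at chr3:107101317-107101616 (plus strand) for Kcna2, chr12:113139986-113140285 (plus strand) for Crip2 and chr10:88682974-88683273 (minus strand) for Spic, which had no match.
Kcna2 promoter: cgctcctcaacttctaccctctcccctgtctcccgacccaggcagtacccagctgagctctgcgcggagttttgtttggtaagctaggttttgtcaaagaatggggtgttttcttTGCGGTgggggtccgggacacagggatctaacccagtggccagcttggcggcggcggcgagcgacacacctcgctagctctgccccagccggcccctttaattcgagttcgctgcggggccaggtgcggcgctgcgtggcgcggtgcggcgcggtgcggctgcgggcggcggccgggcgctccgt
Crip2 promoter: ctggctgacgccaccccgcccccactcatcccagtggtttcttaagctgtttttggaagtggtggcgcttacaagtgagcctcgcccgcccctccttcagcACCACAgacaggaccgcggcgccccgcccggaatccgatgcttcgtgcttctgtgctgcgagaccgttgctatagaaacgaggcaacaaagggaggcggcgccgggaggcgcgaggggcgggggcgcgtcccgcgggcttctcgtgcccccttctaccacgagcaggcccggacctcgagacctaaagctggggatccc
Spic promoter: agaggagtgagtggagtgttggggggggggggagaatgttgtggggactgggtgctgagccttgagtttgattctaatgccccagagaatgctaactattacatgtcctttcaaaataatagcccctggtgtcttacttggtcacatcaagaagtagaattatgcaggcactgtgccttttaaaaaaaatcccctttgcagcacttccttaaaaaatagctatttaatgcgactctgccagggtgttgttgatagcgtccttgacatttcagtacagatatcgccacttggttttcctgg

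Stem cell genes lay on the lower side. All 32 tested stem cell genes were lower without miR-146a, as were 50.5% of all genes. Of the 32, 6 had an unadjusted p under 0.05 on that side, as did 3.25% of all genes, and 0 were called. The median log2 fold change was -1.74, with -2.72 for miR146aKO over wildtype and -0.58 for miR146aKO_Runx1mut over Runx1mut, and 24 of the 32 were lower in both (26% of all genes). The list level was 3.78, 2.58 and 2.87 in miR146aKO and 1.53, 5.04 and 2.28 in miR146aKO_Runx1mut, against 7.17, 5.91 and 4.82 in wildtype and 2.40, 5.63 and 3.33 in Runx1mut, so the sides overlapped. Nkx2-3, a homeobox factor, was at 0 to 4.74 CPM without miR-146a and 0.513 to 40.8 CPM with it (log2 fold change -3.06, edgeR adjusted p = 0.312). Fgd5, a marker of long-term stem cells, was at 0 to 23.4 and 0.684 to 82.1 CPM (-3.27, adjusted p = 0.388), and Lmo2, a cofactor of blood formation, at 58.2 to 210 and 141 to 751 CPM (-1.07, adjusted p = 0.380). Of 15 tested Hox (Hoxa and Hoxb), Meis and Pbx genes 13 were on the lower side and 1 had an unadjusted p under 0.05. The median was -1.41, with -2.55 for miR146aKO over wildtype and -0.34 for miR146aKO_Runx1mut over Runx1mut. With single libraries left out, the stem cell median ran from -2.79 (without A031) to -1.28 and the Hox, Meis and Pbx median from -2.15 (also without A031) to -1.05.

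Megakaryocyte, mast cell and proliferation lists had lower pooled medians too, with 0 genes called. Megakaryocyte genes were lower in 16 of 20 (median -1.11, 2 at an unadjusted p under 0.05), mast and basophil genes in 6 of 7 (-2.49, 3), cell cycle genes in 34 of 40 (-0.66, 5) and glycolysis genes in 13 of 17 (-0.39, 3). Gata2, a factor shared by stem cells and mast cells, was at 25.9, 15.97 and 17.0 CPM in miR146aKO and 6.37, 394 and 2.42 CPM in miR146aKO_Runx1mut, against 461, 165 and 198 CPM in wildtype and 33.3, 776 and 200 CPM in Runx1mut (log2 fold change -2.55, edgeR adjusted p = 0.492). A031 alone among libraries without miR-146a was high. Mcm2, a subunit of the replicative helicase, was at 32.9 to 81.1 CPM without miR-146a and 72.8 to 265 CPM with it (-1.33, adjusted p = 0.193). The cell cycle median was -1.26 for miR146aKO over wildtype and 0.08 for miR146aKO_Runx1mut over Runx1mut. In the same order the medians were -2.77 and -0.09 for megakaryocyte, -0.80 and 0.02 for glycolysis and -0.70 and 0.36 for ribosome biogenesis genes. Mast and basophil genes had -1.99 and -2.53. The megakaryocyte list level was highest in A031 (6.65) and A051 (6.23), both without miR-146a. It was 1.55 to 3.29 in the other libraries without miR-146a and 2.76 to 6.16 in those with it. Neutrophil genes were lower in 13 of 24 (median -0.02) and ribosome biogenesis genes in 21 of 29 (-0.17). With single libraries left out, the neutrophil median ran from -0.25 to 0.44 and was positive in 5 of 12 omissions (A001, A031, A021, A040 or A151). The mast and basophil median ran from -3.42 to -1.07 (without A042), the megakaryocyte median from -1.95 (without A021) to -0.73, the glycolysis median from -0.60 to -0.26 and the ribosome biogenesis median from -0.35 to -0.07.

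No single gene was called lower. The 12 genes named by rule on the lower side had adjusted p of 0.0952 to 0.176. Lincred1, a long noncoding RNA, was at 4.11, 0.968 and 1.70 CPM in miR146aKO and 0.172, 2.31 and 0 CPM in miR146aKO_Runx1mut, against 77.3, 66.0 and 34.3 CPM in wildtype and 5.11, 7.54 and 5.65 CPM in Runx1mut (log2 fold change -3.80, SE 0.84, edgeR adjusted p = 0.0952). Its 6 libraries without miR-146a lay below the 6 with it. Prkar2b, a regulatory subunit of protein kinase A, was at 21.9 to 105 CPM and 69.2 to 181 CPM (-1.44, SE 0.32, adjusted p = 0.0970). Ptpn7, a phosphatase of blood cells, was at 59.7 to 177 CPM and 125 to 291 CPM (-1.04, SE 0.23, adjusted p = 0.0970). Ldhd, a mitochondrial lactate dehydrogenase, had 3 counts without miR-146a and 284 with it, a ratio of 0.0152 (95% counting interval 0.00311 to 0.0448, edgeR adjusted p = 0.176). It overlaps Znrf1 on the other strand, and the libraries do not keep strand, so its counts can hold reads of both genes.

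The gate's own markers were unequal across libraries. Kit was at 59.7, 47.7 and 24.6 CPM in miR146aKO and 178, 219 and 164 CPM in miR146aKO_Runx1mut, against 436, 363 and 218 CPM in wildtype and 113, 711 and 101 CPM in Runx1mut (log2 fold change -1.83, SE 0.57, edgeR adjusted p = 0.259). Ly6a, which encodes Sca-1, was at 1019, 505 and 742 CPM in miR146aKO and 18.6, 121 and 12.1 CPM in miR146aKO_Runx1mut, against 46.0 to 216 CPM in wildtype and 20.4 to 222 CPM in Runx1mut (0.49, SE 0.95, adjusted p = 0.927). Both markers were detected in all 12 libraries. Of 8 genes listed for the gate 4 were on the lower side (median -0.58, with -0.92 to 0.07 when single libraries were left out and a positive sign without A042). Of 20 lymphoid priming genes 14 were on the higher side (median 0.16, with -0.17 to 0.26, negative without A015, A040 or A047), and 0 members of either list were called. Mature cell lists, whose surface proteins a lineage-negative gate is meant to remove, were highest in some of the same libraries, with the B lineage level at 4.85 (A047), 7.66 (A150) and 7.81 (A151) and at 0.47 to 3.40 in the other 9. The part of the gate in the result was not tested.

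Y-linked genes were unequal too. The level of 4 Y-linked genes was 0.97 to 5.88 without miR-146a and -1.07 to 5.28 with it (mean log2 CPM), with a median log2 fold change of 3.35 for miR146aKO over wildtype and 0.16 for miR146aKO_Runx1mut over Runx1mut. With that level as a covariate 0 genes were called, and the macrophage list median was 3.42 in place of 3.97. The medians of B lineage and MHC class II genes were 1.02 and 0.99 in place of 2.60 and 2.33.

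The pooled value rests on a pair of contrasts that share no library. Over all 12744 genes the log2 fold changes of miR146aKO over wildtype and of miR146aKO_Runx1mut over Runx1mut had a Pearson r of 0.198 and a Spearman rho of 0.0809, as a description across genes, and 52.3% of genes had the same sign. There were 154 genes with an unadjusted p under 0.05 on the higher side in both, 28 on the lower side in both and 37 on opposite sides. Tested alone, miR146aKO against wildtype had 19 genes called higher (0.149%) and 4 lower (0.0314%), and miR146aKO_Runx1mut against Runx1mut had 0 called (0%) with 367 (2.88%) and 223 (1.75%) at an unadjusted p under 0.05. Of the 19 called higher in the first, 8 were on the higher side in the second, where 50.4% of all genes were, and 1 had an unadjusted p under 0.05 there.

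All 5 pooled genes had an unadjusted p under 0.05 on the higher side in both contrasts (8.81% and 2.88% of all genes did), which their choice by the pooled test of the same libraries largely fixes. Slc11a1 alone of the 5 was called in miR146aKO against wildtype. The log2 fold changes were 10.53 (SE 2.02) and 7.87 (SE 1.77) for Siglec1, 8.35 (SE 1.66) and 7.07 (SE 1.62) for Kcna2, and 6.68 (SE 1.49) and 8.67 (SE 1.63) for Crip2, with miR146aKO over wildtype first. For Spic they were 7.17 (SE 1.43) and 6.48 (SE 1.42), and for Slc11a1 7.61 (SE 1.40) and 5.09 (SE 1.24). The difference between the contrasts did not pass the test for any of the 5, but its SE was 1.61 to 2.54 on the log2 scale. A test on the average of both contrasts, which lets the Runx1 effect differ, called 47 genes higher (0.369%) and 4 lower (0.0314%), among them the same 5.

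The difference itself was called for 3 genes (0.0235%), all positive in miR146aKO over wildtype and negative in miR146aKO_Runx1mut over Runx1mut, with 1206 genes at an unadjusted p under 0.05. Cd2, an adhesion receptor of lymphocytes, was at 95.5, 78.4 and 82.8 CPM in miR146aKO and 0.172, 0.178 and 0.242 CPM in miR146aKO_Runx1mut, against 0 to 0.142 CPM in wildtype and 0.996 to 3.94 CPM in Runx1mut. Dok3, an adaptor that dampens immune receptor signals, was at 98.9, 69.4 and 82.5 CPM in miR146aKO and 20.2, 24.7 and 32.7 CPM in miR146aKO_Runx1mut, against 1.92 to 3.997 CPM in wildtype and 28.3 to 117 CPM in Runx1mut. Hvcn1, a proton channel of B cells and phagocytes, was at 143, 259 and 222 CPM in miR146aKO and 79.1, 35.4 and 59.4 CPM in miR146aKO_Runx1mut, against 10.4 to 18.7 CPM in wildtype and 57.8 to 75.7 CPM in Runx1mut.

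**Figure D4:**
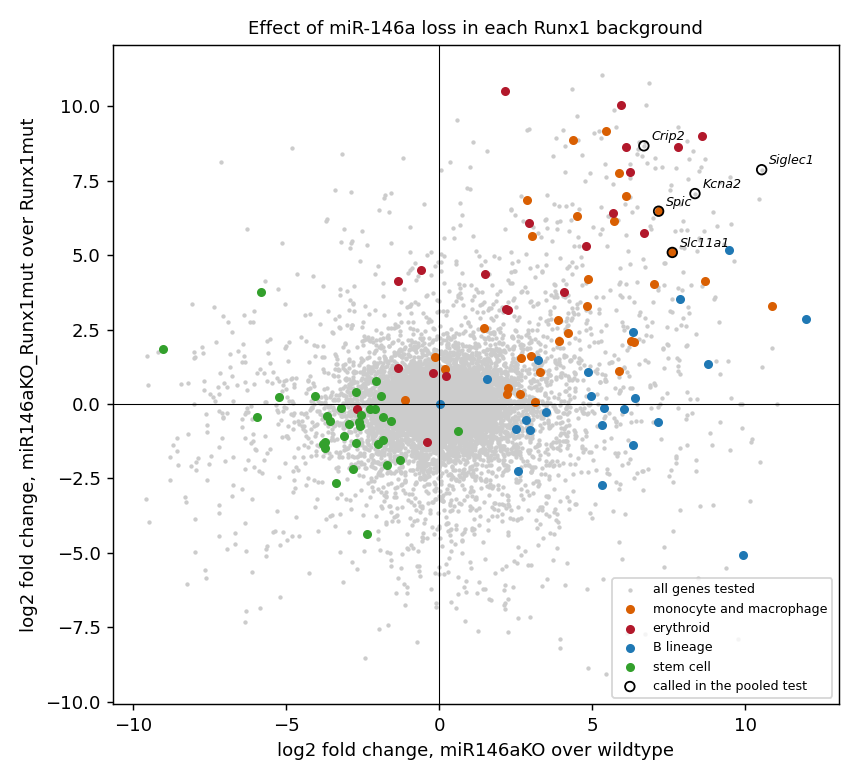
Log2 fold change of each of the 12744 genes tested for miR146aKO over wildtype (x axis) and miR146aKO_Runx1mut over Runx1mut (y axis), with 4 lists in colour and the 5 called genes ringed and named. The macrophage and erythroid genes lie mostly in the upper right, the B lineage genes to the right near 0 on the y axis and the stem cell genes to the left.

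The 5 calls depended on single libraries. Leaving out A150, A151, A051, A015, A053 or A042 left 0 genes called, while 93 were called higher without A047, 51 without A001, 30 without A031, 14 without A040, 12 without A058 and 9 without A021. Without A150, A151 and A051 together, the libraries with the highest macrophage list level, 0 genes were called and the median of that list was 1.32. Over single omissions the fold changes of the 5 genes moved less. Over the 12 omissions Siglec1 stayed between 8.09 and 9.47, Kcna2 between 7.40 and 8.16, Crip2 between 6.73 and 7.93, Spic between 6.46 and 7.29 and Slc11a1 between 5.89 and 7.37 on the log2 scale, with adjusted p of at most 0.198. The joint omission left A047, A001 and A031 without miR-146a, where Siglec1 was at 2.21, 2.93 and 22.03 CPM. In the omitted A150, A151 and A051 it was at 315, 245 and 201 CPM. Over all genes the fold changes of the joint omission had a Pearson r of 0.766 with those of all 12 libraries.

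**Figure D5:**
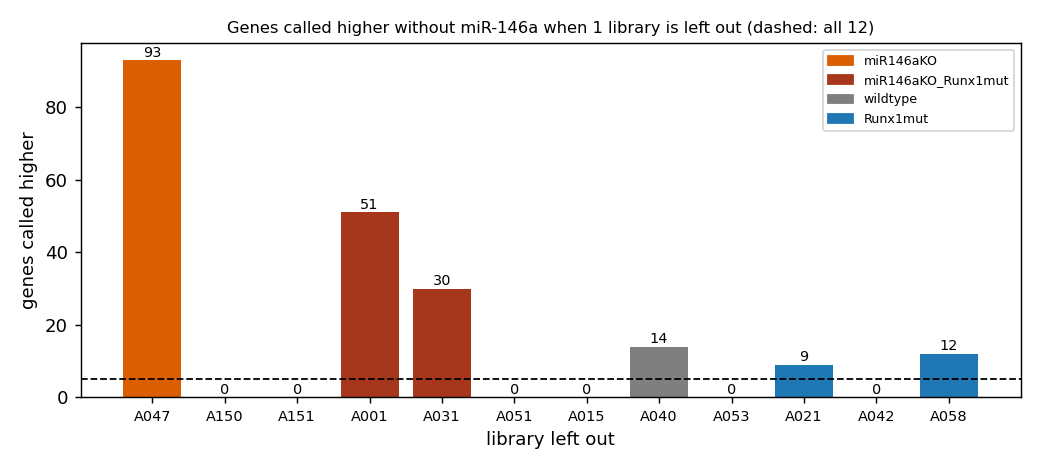
Number of genes called higher without miR-146a when 1 library is left out (x axis, coloured by genotype), with a dashed line at the 5 called in all 12. The count is 0 for 6 of the 12 omissions and reaches 93 without A047.

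Total counts per library were 3540043 to 6522388 without miR-146a and 4387524 to 7026393 with it, and the ribosomal RNA gene Rn45s took 5.71% to 17.8% and 3.91% to 16.4% of them.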

How the data were processed

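Per the file headers and the deposited tables, the values were raw read counts per gene symbol (24421 symbols), as the authors deposited them, with 1 column per library and a second table that names each column's genotype without a replicate number. Per the labels' protocols, RNA of sorted cells was amplified with the Ovation v2 kit and made into Nextera XT libraries, which do not keep strand, so overlapping genes cannot be told apart. The submitters' processing notes name the build mm10, the aligner HISAT2 2.0.4, the counter featureCounts 1.5.2 and the read check FastQC 0.11.2. The sources used here give neither the annotation nor how reads that map to several places were counted. Because reads of amplified cDNA are not separate molecules, intervals at 95% cover counting error only.

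Counts were fitted with edgeR 4.0.16 (R 4.3.3): TMM scaling, the default low-count filter by genotype (12744 genes kept, while 5211 symbols had no count), a quasi-likelihood test with terms for Runx1 status and miR-146a loss, and Benjamini-Hochberg adjustment over all genes tested, called under 0.05. Each SE was derived from the test's F statistic. A second fit with 4 genotype means gave both within-background contrasts, their difference (miR146aKO_Runx1mut over Runx1mut minus miR146aKO over wildtype) and their average. DESeq2 1.42.0 and limma 3.58.1 were alternatives, and the scripts were tested on simulated counts. CPM use TMM-scaled library sizes, and log2 CPM a prior count of 2.

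The rule for named genes took, among genes with a mean log2 CPM of at least 2, no predicted model name and the same sign in both backgrounds, up to 12 called genes per direction, filled with the genes of smallest p. It added up to 3 genes of smallest p per list, and always Mir146, Runx1, Traf6, Irak1, Irak2, Kit and Ly6a. The comparison, the 28 lists and this rule were chosen with earlier results of these data known, and 4 lists were added after values were seen. Of all symbols 23384 matched GENCODE M21 (GRCm38), which gave coordinates and 3′ UTRs. Mature miRNAs and promoters came from RefSeq.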

Additional observations from a re-analysis of the deposited data

Results flagged for a closer look

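In 6 of 124 tests for a single sample far from the other 5 of its side a value stood out, and chance alone gives about 1 in 20. All are log2 CPM. Among libraries with miR-146a, A040 of wildtype was the highest for Hmox1 at 4.99, with the next at 1.61, and for the iron and haem list at 4.91, with the next at 4.43. Among libraries without miR-146a, A001 was the lowest for Irak2 at 1.38, with the next at 4.19, and for the Y-linked list at 0.966, with the next at 4.49. A031 was the highest for the Hox, Meis and Pbx list at 3.27, with the next at 1.94, and for the mast and basophil list at 5.26, with the next at 2.59.

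The effect of miR-146a loss differed between the Runx1 backgrounds by a direct test for 3 genes. The difference of log2 fold changes, miR146aKO_Runx1mut over Runx1mut minus miR146aKO over wildtype, was -13.41 for Cd2 (SE 1.40, edgeR adjusted p = 0.00202), -6.08 for Dok3 (SE 0.84, adjusted p = 0.0257) and -4.07 for Hvcn1 (SE 0.61, adjusted p = 0.0457). Cd2 had almost no counts in wildtype and in miR146aKO_Runx1mut, so the size of its difference is poorly fixed.

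Mir146 had 14 counts in A031, a library labelled as lacking miR-146a, and 0 counts in each of the 6 libraries with it.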

How the results depend on the processing

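The pooled count of 5 genes higher and 0 lower was 224 and 15 with no low-count filter, 315 and 72 with DESeq2, 0 and 0 with limma-voom, 3 and 0 with robust edgeR, 47 and 4 for the average of genotype means, 0 and 0 with a Y-linked covariate and 0 and 0 without A150, A151 and A051 together. It was 5 and 0 with RLE factors, with a minimum of 1 CPM in 6 libraries, without the Runx1 covariate and without Rn45s, and 4 and 0 with upper-quartile factors, which put the median log2 fold change of all genes at -0.11. Leaving out each library gave 0 to 93 higher and 0 to 2 lower. The 23 genes called for miR146aKO against wildtype became 796 with no filter, 839 with DESeq2, 76 with limma-voom and 2 to 135 when single libraries were left out. The 0 called for miR146aKO_Runx1mut against Runx1mut became 144 with no filter and 78 with DESeq2, and remained 0 when any library was left out. The difference between these contrasts, 3 genes, gave 268 with no filter, 166 with DESeq2, 0 with limma-voom and 1 to 6 when single libraries were left out. Genes whose sides do not overlap numbered 43 on the higher side and 42 on the lower in all 12 libraries. They numbered 45 and 31 with RLE factors and 35 and 55 with upper-quartile factors. When single libraries were left out they numbered 48 to 110 on the higher side and 52 to 90 on the lower. With fewer libraries separation comes more easily. Other causes were not tested.

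Of 2653 fold changes of the 111 named genes under these settings, 2641 kept their sign, 174 newly passed the threshold and 50 lost it. None of the called values changed sign. With single libraries left out, the median stayed between 3.54 and 4.21 for macrophage, 3.08 and 4.38 for erythroid and 3.99 and 5.66 for stromal genes. No paired analysis was possible because the columns of the count table carry no replicate numbers. The settings for the within-background contrasts and the joint omission of 3 libraries were chosen after seeing the data. The number of libraries, their uneven cell markers and 3540043 to 7026393 counts each limit what the pooled test can show, and a gene that was not called is not shown to be unchanged.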
